A study of Homo sapiens with 4 samples.

Results

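The 10 genes described here were chosen by symbol from a table of 60302 genes: ATF4, the transcription factor gene DDIT3, the feedback and stress genes TRIB3 and CHAC1, the amino acid synthesis genes ASNS, PSAT1, PHGDH and SHMT2, and the growth restraint genes SESN2 and DDIT4. Each symbol had 1 row in the table. The cells were HMLE, an established line of immortalized human breast epithelial cells. In 2 samples (controls 1 and 2) they stably carried a non-specific short hairpin RNA from a lentiviral vector, and in 2 samples (knockdowns 1 and 2) a hairpin against hnRNPF, an RNA-binding protein that regulates splicing. PolyA-selected RNA was sequenced as stranded paired-end libraries. No stress treatment or amino acid withdrawal is named in the labels. Separate infections or hairpins within a group are not stated in the labels, so p-values here cover the spread between the deposited samples, which may be technical.

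ATF4 is a basic leucine zipper transcription factor of the integrated stress response. When amino acids run short or unfolded protein accumulates, kinases phosphorylate the initiation factor eIF2, general translation drops, and the ATF4 message is translated more efficiently through its upstream open reading frames. ATF4 protein, often with a C/EBP partner, then switches on genes that make, import and charge amino acids, together with regulators that restrain growth or feed back on the pathway. The ATF4 mRNA level is therefore not a readout of ATF4 protein. Its targets can respond to other factors too: DDIT4 and SESN2 are also known as p53 targets, and DDIT4 as a hypoxia target.

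The unit is FPKM, a fragment count divided by gene length and by the size of the library, so levels can be set side by side between genes. HNRNPF measured 154 and 153 FPKM in controls 1 and 2 against 18.7 and 16.6 FPKM in knockdowns 1 and 2, so every sample matched its label (log2 fold change -3.05, SE 0.099; limma, adjusted p = 0.0251). That call is lost with no filter (adjusted p = 0.259), with no variance trend and with the replicate number as a block, and without either control. The FPKM sums of the 4 samples lay between 391184 and 396135. All 14 epithelial and basal markers examined were present, with KRT5 the most abundant at a mean of 3819 FPKM. Of the fibroblast markers 2 of 8 (COL1A1 and TWIST1) reached a mean of 1 FPKM, and the list summed to between 11.95 and 15.8 FPKM per sample. Of the leukocyte markers 1 of 5 (CD68) did, with sums of 11.3 to 12.4 FPKM, and of the endothelial markers 0 of 3 did, with sums up to 0.125 FPKM. The T cell gene CD3E was listed at 0, and PTPRC, LUM, DCN, CDH5, VWF and KDR stayed under 0.1 FPKM. The summed epithelial markers measured 11425 and 16133 FPKM in controls 1 and 2 against 14339 and 16190 FPKM in knockdowns 1 and 2. The 13 mitochondrially encoded genes, listed as a sign of RNA quality, summed to 31978 and 24742 FPKM in controls 1 and 2 against 31102 and 32440 FPKM in knockdowns 1 and 2. The part of either in the results below was not tested.

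ATF4 and C/EBP proteins bind together to a composite element, the C/EBP-ATF response element. Its core was searched as TGATGNAA on either strand (TTNCATCA when read on the other strand) in RefSeq promoter windows of 300 bases, 250 before and 50 after an annotated start, on GRCh38.p14. Windows were matched for 9 of the 10 genes, without SHMT2. The core was present in 2 of the 9, ASNS and CHAC1, against 4.46% of all 27305 genes with a window. By window it was in 2 of 14, against 3.62% of all 35116. The 9 were listed as ATF4 and its targets, so these shares are not independent of that choice. ASNS held the core in 1 of its 2 windows and CHAC1 in its 1 window. The 250 bases before the start of these 2 genes are shown because they carry the letters of the site; the capitals mark the core, and in CHAC1 it is read on the opposite strand.
ASNS, chr7:97872409-97872658, minus strand: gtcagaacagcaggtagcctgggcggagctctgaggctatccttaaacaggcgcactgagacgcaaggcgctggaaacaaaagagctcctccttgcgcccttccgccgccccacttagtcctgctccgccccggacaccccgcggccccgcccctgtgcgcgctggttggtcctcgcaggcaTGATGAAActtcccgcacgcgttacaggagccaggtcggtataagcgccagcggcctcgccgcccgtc
CHAC1, chr15:40953221-40953470, plus strand: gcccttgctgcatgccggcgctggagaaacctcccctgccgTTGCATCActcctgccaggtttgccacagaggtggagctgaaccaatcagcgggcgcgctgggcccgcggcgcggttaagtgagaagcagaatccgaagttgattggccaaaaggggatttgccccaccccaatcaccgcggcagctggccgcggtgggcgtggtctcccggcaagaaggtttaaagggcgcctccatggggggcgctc
The core began 68 bases before the start in ASNS and 209 bases before it in CHAC1. The windows of ATF4, DDIT3, TRIB3, PSAT1, PHGDH, SESN2 and DDIT4 did not hold these letters, which says only that they are not in this window.

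The comparison asks whether depletion of hnRNPF went with a different level of this stress programme. TRIB3 and DDIT4 showed the widest separation, both lower in the knockdowns, while the ATF4 means differed by less than the SD of the controls and DDIT3 stood at nearly the same mean in both groups. In bulk RNA, fewer cells with a message and less of it per cell cannot be told apart. None of the 10 genes passed an adjusted p of 0.05 in limma (0 of 10), where 0.00763% of the 13110 genes tested passed, which is HNRNPF alone. At an unadjusted p under 0.05 there were 2 of the 10 (TRIB3 and DDIT4), both lower, where 3.02% of genes tested were lower and 3.06% higher at that p. With median-ratio scaling there were 3 (with SHMT2), where 6.46% of all genes tested were under that p in either direction. With the replicate block there were also 3 (with SHMT2), where 13.7% of all genes tested were. Knockdowns 1 and 2 were both below the lower control for 5 of the 10 (TRIB3, CHAC1, SHMT2, SESN2 and DDIT4), where this held for 17.1% of all genes tested, and both were above the higher control for 0, where this held for 17.5%. The difference in mean log2 level was below 0 for 9 of the 10, where this held for 49.8% of genes, and its median over the 10 was -0.20, where that of all genes tested was 0.0012. The median over the 10 was -0.07 without control 1, -0.49 without control 2, -0.34 without knockdown 1 and -0.09 without knockdown 2. That of all genes tested moved too, to 0.062, -0.063, -0.057 and 0.061 in the same order. The list medians below, given without a sample, are to be read beside these values. All 10 passed the filter of a mean of at least 1 FPKM. These genes were proposed with results of these data in view, so their shares are a description and not independent evidence of a direction.

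**Figure D1:**
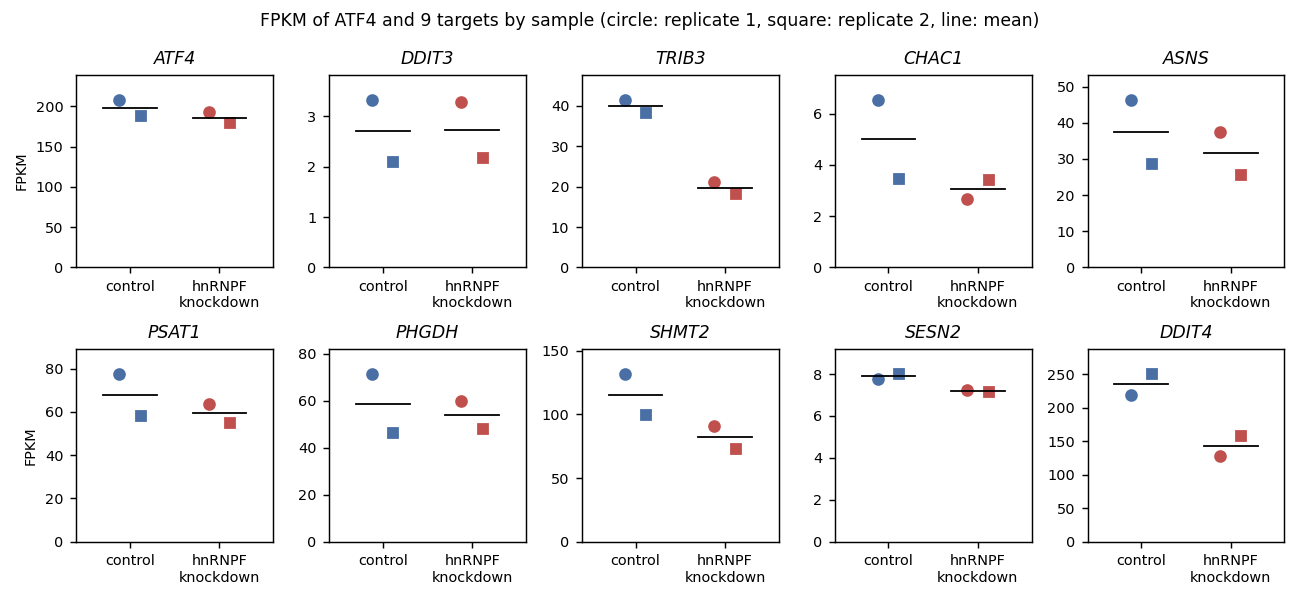
FPKM of each gene (vertical axis, linear from 0, scaled per gene) in the 2 control (blue) and 2 hnRNPF knockdown (red) samples, with replicate 1 as a circle, replicate 2 as a square and the group mean as a line. TRIB3 and DDIT4 show clear gaps between the groups, from 21.0 to 38.2 FPKM and from 158 to 219 FPKM, while the DDIT3 groups lie on top of each other.

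Among the controls the order of levels was DDIT4, ATF4, SHMT2, PSAT1, PHGDH, TRIB3, ASNS, SESN2, CHAC1 and DDIT3, from a mean of 235 FPKM down to 2.71 FPKM. PSAT1 and PHGDH, neighbours in this order, overlapped between samples, and so did TRIB3 and ASNS; the other neighbours did not overlap in the controls. In the knockdowns ATF4 stood above DDIT4, ASNS stood above TRIB3, and CHAC1 and DDIT3 overlapped. ATF4 and DDIT4 were among the most abundant messages of the cells, above 98.1% and 98.0% of the genes tested by mean level. DDIT3 was low, above 17.1% of them.

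ATF4 (ENSG00000128272.14, chromosome 22, 39915700 to 39918690 on the plus strand, GRCh37) is the transcription factor at the head of the group. It measured 208 and 187 FPKM in controls 1 and 2 against 193 and 179 FPKM in knockdowns 1 and 2. Knockdown 1 lay between the controls, so the groups overlapped. The log2 fold change, taken here and below on log2(FPKM + 1), was -0.09 (SE 0.10, 95% interval -0.37 to 0.19; limma, adjusted p = 0.998). That interval spans a level in the knockdowns from 0.776 to 1.14 times that in the controls. Leaving out control 1 gave -0.013 and leaving out control 2 gave -0.17.

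DDIT3 (ENSG00000175197.10, chromosome 12, 57910371 to 57914300 on the minus strand) encodes CHOP, a C/EBP-family factor that ATF4 induces under lasting stress and that is linked to cell death. It measured 3.33 and 2.09 FPKM in controls 1 and 2 against 3.29 and 2.17 FPKM in knockdowns 1 and 2, means of 2.71 ± 0.875 and 2.73 ± 0.790 FPKM (SD, n = 2). The first replicate was the higher one in both groups, and the groups overlapped almost completely. The log2 fold change was 0.01 (SE 0.26, 95% interval -0.68 to 0.70; limma, adjusted p = 0.999), and it was -0.23 without control 2 and -0.21 without knockdown 1. DDIT3 overlaps MARS on the opposite strand, which stood between 75.8 and 91.1 FPKM. The libraries were stranded, but whether strand was used in the counting is not given in the sources used here.

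TRIB3 (ENSG00000101255.10, chromosome 20, 343479 to 378203 on the plus strand) encodes a pseudokinase that ATF4 and CHOP induce and that feeds back on both. It measured 41.6 and 38.2 FPKM in controls 1 and 2 against 21.0 and 18.2 FPKM in knockdowns 1 and 2. Both knockdowns lay well under both controls, and the means were 2.04-fold apart. Between the groups its log2 fold change was -0.99 (SE 0.12, 95% interval -1.31 to -0.68), with an adjusted p of 0.352 in limma. Of the 13110 genes, 48 had a more negative log2 fold change and 21 had a smaller p.

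CHAC1 (ENSG00000128965.11, chromosome 15, 41245160 to 41248717 on the plus strand) encodes an enzyme that degrades glutathione and is a target of the ATF4, ATF3 and CHOP cascade; its promoter core is shown above. It measured 6.55 and 3.45 FPKM in controls 1 and 2 against 2.67 and 3.41 FPKM in knockdowns 1 and 2. The groups did not overlap, but control 2 lay barely above knockdown 2. Its log2 fold change was -0.53 (SE 0.30, 95% interval -1.32 to 0.27; limma, adjusted p = 0.902). Within the replicate numbers the difference was -1.04 between knockdown 1 and control 1 and -0.014 between knockdown 2 and control 2, and the log2 fold change was -0.15 without control 1 and -0.91 without control 2.

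ASNS (ENSG00000070669.16, chromosome 7, 97481430 to 97501854 on the minus strand) encodes asparagine synthetase, the textbook target of ATF4 in amino acid shortage. It measured 46.4 and 28.5 FPKM in controls 1 and 2 against 37.5 and 25.6 FPKM in knockdowns 1 and 2. The 2 samples with the number 1 were above the 2 with the number 2, and the groups overlapped. On the log2 scale the fold change was -0.23 (SE 0.30, 95% interval -1.03 to 0.58; limma, adjusted p = 0.999), and it was 0.12 without control 1 and 0.04 without knockdown 2.

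PHGDH, PSAT1 and SHMT2 act in a line: PHGDH and PSAT1 catalyse steps of serine synthesis from a glycolytic intermediate, and SHMT2 converts serine to glycine in mitochondria and passes a carbon unit to folate. PHGDH (ENSG00000092621.11, chromosome 1, 120202421 to 120286838 on the plus strand) measured 71.3 and 46.1 FPKM in controls 1 and 2 against 59.7 and 48.1 FPKM in knockdowns 1 and 2. Both knockdowns lay between the controls. Its log2 fold change was -0.10 (SE 0.24, 95% interval -0.74 to 0.55; limma, adjusted p = 0.999), and 0.21 without control 1 or 0.06 without knockdown 2.

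PSAT1 (ENSG00000135069.13, chromosome 9, 80912059 to 80945009 on the plus strand) measured 77.5 and 58.2 FPKM in controls 1 and 2 against 63.8 and 54.9 FPKM in knockdowns 1 and 2. Knockdown 1 lay above control 2, so the groups overlapped. The log2 fold change was -0.18 (SE 0.17, 95% interval -0.64 to 0.28; limma, adjusted p = 0.978), and 0.02 without control 1.

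SHMT2 (ENSG00000182199.10, chromosome 12, 57623110 to 57628718 on the plus strand) measured 132 and 99.4 FPKM in controls 1 and 2 against 91.1 and 73.1 FPKM in knockdowns 1 and 2. It was the only 1 of the 4 synthesis genes whose groups did not overlap, and its means were 1.41-fold apart. The log2 fold change was -0.48 (SE 0.19, 95% interval -0.98 to 0.02; limma, adjusted p = 0.830), with differences of -0.53 and -0.44 within the replicate numbers. It was -0.28 without control 1 and -0.69 without control 2.

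SESN2 (ENSG00000130766.4, chromosome 1, 28586038 to 28609002 on the plus strand) encodes sestrin 2, a leucine sensor that restrains the growth kinase complex mTORC1. It measured 7.79 and 8.01 FPKM in controls 1 and 2 against 7.24 and 7.15 FPKM in knockdowns 1 and 2. The replicates were close and the groups did not overlap, but the difference was small, with means 1.10-fold apart. Between the groups its log2 fold change was -0.12 (SE 0.12, 95% interval -0.44 to 0.21; limma, adjusted p = 0.990).

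DDIT4 (ENSG00000168209.4, chromosome 10, 74033678 to 74035794 on the plus strand) encodes REDD1, which also restrains mTORC1, by way of the TSC complex. It measured 219 and 250 FPKM in controls 1 and 2 against 127 and 158 FPKM in knockdowns 1 and 2. Both knockdowns lay below both controls, with means 1.64-fold apart. Its log2 fold change was -0.72 (SE 0.15, 95% interval -1.11 to -0.33), with an adjusted p of 0.586 in limma. Of the 13110 genes, 128 had a more negative log2 fold change.

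**Figure D2:**
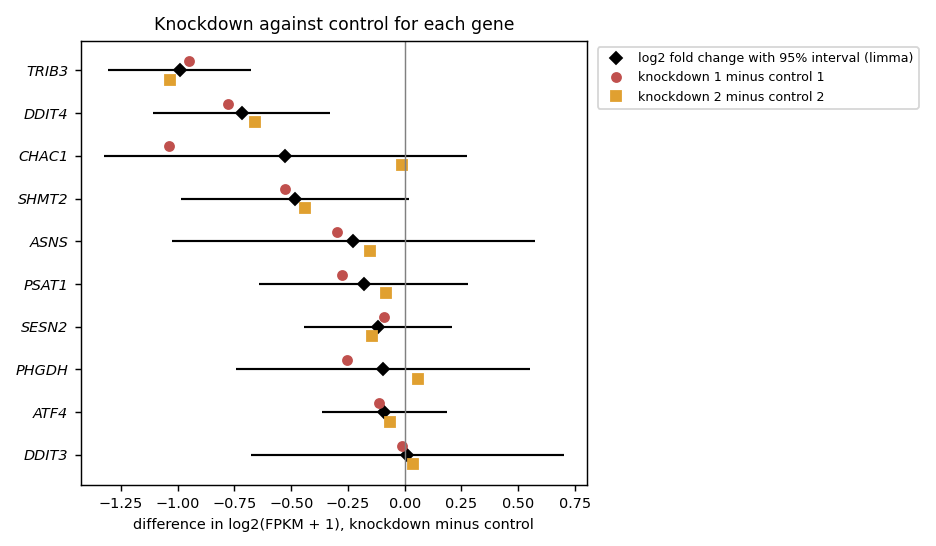
Difference in log2(FPKM + 1), knockdown minus control, for each gene (horizontal axis): diamonds and bars are the limma log2 fold change with its 95% interval, circles knockdown 1 minus control 1 and squares knockdown 2 minus control 2. The intervals of TRIB3 (-1.31 to -0.68) and DDIT4 (-1.11 to -0.33), which are not adjusted for the number of genes, lie below 0, and the other 8 include it.

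Replicate 1 stood above replicate 2 in both groups for 7 of the 10 (ATF4, DDIT3, TRIB3, ASNS, PSAT1, PHGDH and SHMT2), where this held for 52.4% of all genes tested. Replicate 1 also read higher over the tested genes as a whole. The median-ratio size factors were 1.051 and 0.9566 in controls 1 and 2 and 1.045 and 0.9605 in knockdowns 1 and 2. The part of that offset in the gaps below was not tested. For ASNS the gap between replicates was 0.68 in the controls and 0.54 in the knockdowns on the log2(FPKM + 1) scale, wider than its difference between the groups. DDIT4 had the opposite order, with gaps of -0.19 and -0.31. CHAC1 had gaps of opposite sign, 0.76 in the controls and -0.26 in the knockdowns. For TRIB3, whose gaps were 0.12 and 0.20, the differences within the numbers were -0.95 and -1.03, and for DDIT4 they were -0.78 and -0.66. The labels do not say that a number marks a shared batch.

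**Figure D3:**
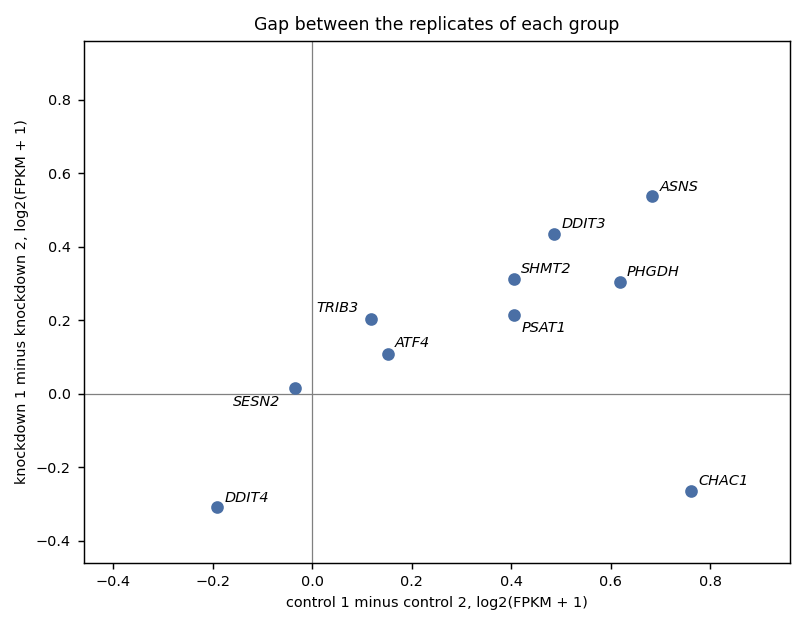
Gap between replicate 1 and replicate 2 in log2(FPKM + 1), in the controls (horizontal axis) and in the knockdowns (vertical axis), with 1 point per gene. The upper right corner holds 7 genes, with ASNS farthest out at 0.68 and 0.54, while DDIT4 lies at the lower left and CHAC1 at the lower right.

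The pathway around these genes was followed in 9 lists, and 0 of their 138 tested genes passed in limma in either direction, where 0.00763% of all genes tested did. At an unadjusted p under 0.05, 14 of the 138 were lower and 1 was higher, where 3.02% and 3.06% of all genes tested were. The lists were chosen with earlier results of these data known. Their shares, here and below, are a description and not independent evidence of a direction. Upstream of ATF4, the eIF2 kinases, eIF2 and eIF2B subunits and phosphatase regulators had 11 of 18 tested genes below 0 and a median log2 fold change of -0.03, which was -0.11 without control 2 and 0.027 without knockdown 2. EIF2S1, the eIF2 subunit that is phosphorylated, measured 54.0 and 53.4 FPKM in controls 1 and 2 against 44.1 and 42.9 FPKM in knockdowns 1 and 2. The eIF2B exchange factor genes EIF2B5 (means of 14.0 ± 0.148 and 11.8 ± 0.180 FPKM; controls before knockdowns, ± SD with n = 2, here and below) and EIF2B3 (23.1 ± 0.939 and 20.4 ± 1.13 FPKM) were also lower in both knockdowns. EIF2B4, another subunit, overlapped (16.1 ± 3.60 and 18.6 ± 0.642 FPKM). In limma their adjusted p ran from 0.765 to 0.950. In the whole list, both knockdowns lay below both controls for 4 of 18 and above both for 0. All genes tested had shares of 17.1% and 17.5%.

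The leucine zipper partners and relatives of ATF4 had 12 of 22 tested genes below 0 and a median of -0.01, which was -0.16 without control 2 and stayed below 0 without each other sample. NFE2L2, which encodes the antioxidant regulator NRF2, stood apart within this list, with 23.9 and 19.7 FPKM in controls 1 and 2 against 11.3 and 10.03 FPKM in knockdowns 1 and 2. Its log2 fold change was -0.96 (SE 0.14; limma, adjusted p = 0.479). ATF6B, a relative of the unfolded protein sensor ATF6, averaged 28.9 ± 2.81 FPKM in the control samples against 21.3 ± 2.18 FPKM in the knockdown samples. CEBPD, a C/EBP factor, stood at 13.4 ± 2.001 and 10.02 ± 0.701 FPKM, and the stress-induced NUPR1 at 12.2 ± 4.77 and 7.91 ± 0.342 FPKM. None of these 4, named for the smallest p of the list, overlapped between the groups. Over the list, both knockdowns lay below both controls for 5 of 22 and above both for 2. All genes tested had shares of 17.1% and 17.5%.

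Amino acid synthesis and one-carbon genes were, of the 9 lists, the one with the largest share of non-overlapping members: both knockdowns lay below both controls for 13 of 19, where this held for 17.1% of all genes tested, and above for 1. The median log2 fold change was -0.19, and 17 of 19 were below 0. Leaving out 1 sample at a time gave medians from -0.29 to -0.14. MTHFD1, a folate enzyme, measured 76.1 and 75.1 FPKM in controls 1 and 2 against 62.7 and 63.3 FPKM in knockdowns 1 and 2. TYMS, which makes thymidylate and is also an S-phase gene, stood at 46.4 ± 0.370 and 38.3 ± 2.17 FPKM. GOT1, an aspartate aminotransferase, stood at 52.3 ± 4.19 and 43.1 ± 0.0737 FPKM. In limma the adjusted p of these 3 ran from 0.789 to 0.817.

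The widest differences of that list, singled out after the values were seen, were those of 2 genes in which control 1 was far above the other samples. PYCR1, the last step of proline synthesis, measured 26.8 and 10.5 FPKM in controls 1 and 2 against 9.73 and 6.32 FPKM in knockdowns 1 and 2. CTH, of cysteine synthesis, measured 10.8 and 4.46 FPKM in controls 1 and 2 against 3.95 and 3.08 FPKM in knockdowns 1 and 2. In both genes control 2 was only slightly above knockdown 1. PSPH, which completes serine synthesis after PSAT1, was named for that role after its values were seen and measured 16.7 and 17.0 FPKM in controls 1 and 2 against 14.99 and 12.4 FPKM in knockdowns 1 and 2. PYCRL, a PYCR1 relative, was the 1 gene above both controls, with 8.21 and 7.89 FPKM in controls 1 and 2 against 12.6 and 9.58 FPKM in knockdowns 1 and 2.

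Amino acid transporters had 8 of 9 tested genes below 0 and a median of -0.18, which was 0.011 without control 1 and -0.29 without control 2. SLC3A2, the heavy chain shared by several transporters, measured 248 and 239 FPKM in controls 1 and 2 against 164 and 171 FPKM in knockdowns 1 and 2. SLC1A5, a glutamine carrier, stood at 179 and 114 FPKM and then 102 and 65.6 FPKM, and SLC7A5, the light chain that imports leucine, at 452 ± 27.1 and 387 ± 39.7 FPKM. SLC1A4, a neutral amino acid carrier, overlapped (2.14 ± 0.617 and 1.75 ± 0.194 FPKM). Adjusted p-values ran from 0.513 for SLC3A2 to 0.994 for SLC1A4 in limma. Of the 9 tested genes, 3 were below both controls in both knockdowns and 0 were above. All genes tested had shares of 17.1% and 17.5%.

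The aminoacyl-tRNA synthetases, which charge tRNAs and are known ATF4 targets, lay close to 0, with a median of -0.02 and 7 of 12 below 0. The median was 0.094 without control 1 and -0.14 without control 2. Both knockdowns lay below both controls for 1 of the 12 and above both for 1, where this held for 17.1% and 17.5% of all genes tested. YARS averaged 65.8 ± 1.78 FPKM in the control samples against 58.5 ± 5.26 FPKM in the knockdown samples, and LARS, in the other direction, 45.8 ± 0.639 and 50.1 ± 2.28 FPKM. EPRS (62.6 ± 8.13 and 56.7 ± 1.90 FPKM) and WARS (30.4 ± 5.14 and 33.1 ± 2.52 FPKM) overlapped. Replicate 1 stood above replicate 2 in both groups for 11 of these 12 genes, where this held for 52.4% of all genes tested. In this list the promoter core TGATGNAA was most frequent, in 7 of the 10 genes with a window, followed by the transporters with 5 of 9. The core was in 0 of 17 genes of the other unfolded protein response arms and in 4.46% of all genes with a window. The synthetases were listed as known ATF4 targets, so their share is a description and not independent of that choice.

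Among other stress targets of ATF4 and CHOP, 18 of 22 tested genes were below 0, with a median of -0.08, which was 0.058 without control 1 and -0.25 without control 2. ERO1A, an oxidase of the endoplasmic reticulum, measured 39.8 and 36.7 FPKM in controls 1 and 2 against 26.7 and 26.0 FPKM in knockdowns 1 and 2 (log2 fold change -0.52, SE 0.10; limma, adjusted p = 0.540). GDF15, a stress-induced secreted factor that p53 also controls, stood at 18.7 ± 3.36 and 11.1 ± 2.02 FPKM. HERPUD1, of endoplasmic reticulum degradation, stood at 27.1 and 22.1 FPKM and then 12.01 and 20.7 FPKM. The CHOP-linked genes PPP1R15A, TNFRSF10B and BBC3, named for that link after their values were seen, overlapped between the groups. ERO1A of this list, and TRIB3, which CHOP also induces, did not overlap. Over the list, both knockdowns lay below both controls for 4 of 22 and above both for 1. This held for 17.1% and 17.5% of all genes tested.

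The other arms of the unfolded protein response had 11 of 17 genes below 0 and a median of -0.09, which was -0.0034 without control 1 and -0.019 without knockdown 2. HSPA5, the chaperone BiP, measured 200 and 214 FPKM in controls 1 and 2 against 150 and 173 FPKM in knockdowns 1 and 2. MANF, a secreted stress protein, measured 89.6 and 79.7 FPKM and then 57.8 and 72.2 FPKM, and the chaperone CALR averaged 315 ± 11.7 and 290 ± 22.7 FPKM. XBP1, the factor spliced by the IRE1 arm, overlapped in total level (45.6 ± 9.89 and 36.1 ± 4.17 FPKM). These genes were named for the smallest p of the list, and their adjusted p in limma ran from 0.789 to 0.963. Both knockdowns lay below both controls for 5 of the 17 genes and above both for 2. The shares over all genes tested were 17.1% and 17.5%.

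Paralogs of the 10 genes did not share a direction, with 3 of 7 tested genes below 0 and a median of 0.02, which was -0.13 without control 1 and 0.22 without control 2. SESN1, a sestrin controlled by p53, measured 9.87 and 9.48 FPKM in controls 1 and 2 against 6.68 and 7.14 FPKM in knockdowns 1 and 2. ATF5, a close relative of ATF4, measured 6.49 and 8.18 FPKM in controls 1 and 2 against 9.69 and 8.56 FPKM in knockdowns 1 and 2, the opposite order. SESN3 (1.85 ± 0.867 and 2.82 ± 0.850 FPKM) and the cytosolic SHMT1 (29.5 ± 1.81 and 27.3 ± 3.55 FPKM) overlapped. Of the 7 tested genes, 1 was below both controls in both knockdowns and 1 was above. All genes tested had shares of 17.1% and 17.5%.

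Downstream of SESN2 and DDIT4, the regulators of mTORC1 had 12 of 19 tested genes below 0 and a median of -0.08, which was -0.0062 without control 1 and -0.17 without control 2. AKT1S1, the mTORC1 inhibitor PRAS40, was higher in both knockdowns, with 21.1 and 22.7 FPKM in controls 1 and 2 against 31.5 and 28.7 FPKM in knockdowns 1 and 2. WDR24 and SEH1L, parts of the GATOR2 complex that relays amino acid supply, were lower, at 6.26 ± 0.0956 and 4.41 ± 0.228 FPKM and at 28.7 ± 4.32 and 20.4 ± 3.10 FPKM. MTOR averaged 21.9 ± 1.53 FPKM in the control samples against 18.2 ± 0.294 FPKM in the knockdown samples. Their adjusted p in limma ran from 0.678 to 0.840. Of the 19 tested genes, 5 were below both controls in both knockdowns and 3 were above. All genes tested had shares of 17.1% and 17.5%.

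**Figure D4:**
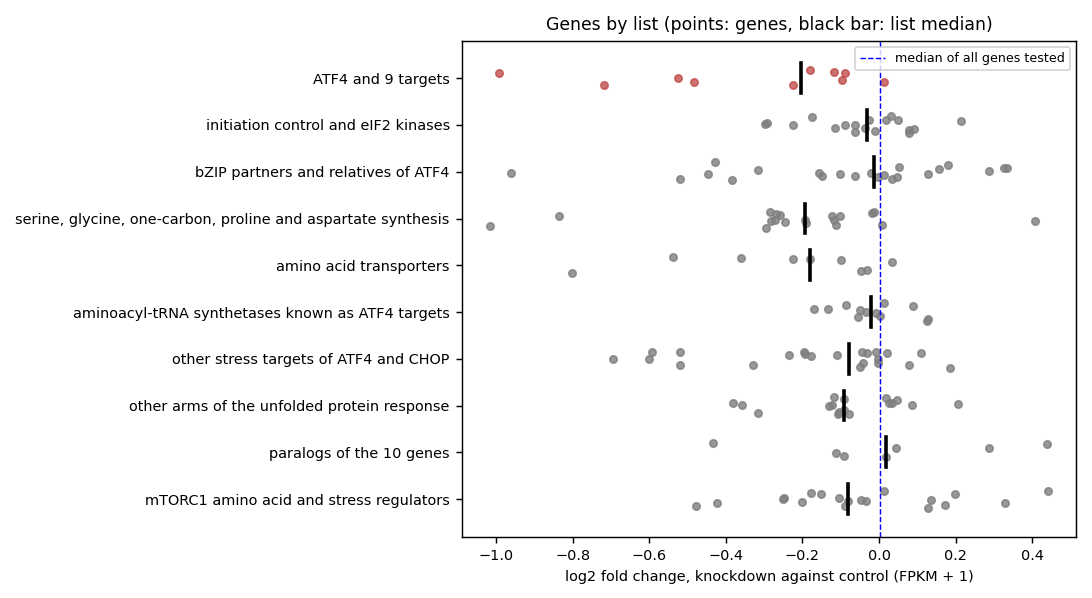
Log2 fold change on log2(FPKM + 1), knockdown against control (horizontal axis), of each tested gene (points) in ATF4 and its 9 targets (red) and in 9 pathway lists (grey), with list medians as black bars and the median of all genes tested as a dashed line. The medians of amino acid synthesis (-0.19) and transporters (-0.18) lie near that of the 10 genes (-0.20), while the tRNA synthetases (-0.02) lie near 0.

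The protein-coding genes with the pattern most like TRIB3 over the 4 samples were TFRC, the transferrin receptor gene, NFE2L2 and PLEKHA3, at root mean square distances of 0.013, 0.058 and 0.064 in centred log2(FPKM + 1). TFRC measured 127 and 117 FPKM in controls 1 and 2 against 65.0 and 55.4 FPKM in knockdowns 1 and 2. For ATF4 they were TIMM8A, ZKSCAN2 and NADK2, at distances of 0.0035 to 0.0065, and for DDIT3 they were CNOT2, C17orf75 and PHC1, at 0.0092 to 0.014. With 4 samples many genes come close to any pattern, so these are descriptions.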

How the data were processed

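PolyA RNA of 4 HMLE samples (2 per group, grouped by their titles) was compared. The authors deposited FPKM, 1 column per replicate per the file headers; per the submitters' processing notes, the tools STAR 2.5.3a and Cuffdiff 2.2.1 and the build GRCh37 are named, without roles. The annotation release is not given in the sources used here. FPKM are scaled for depth and length, so fragment totals are not listed. In single-exon genes, the most frequent smallest increment of length-multiplied FPKM implies 77400000 to 84700000 fragments per sample if it is 1 fragment, but only 43.2% to 48.2% of low values were whole multiples within 0.05, so no count test was run.

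The 13110 genes averaging 1 FPKM or more were compared as log2(FPKM + 1) by limma 3.58.1 (R 4.3.3), using an intensity trend, no covariate and Benjamini-Hochberg adjustment over all of them; tests are two-sided. Fold values are ratios of mean FPKM. The script was tested on simulated data. An exact permutation test of 2 against 2 cannot go below 0.333, so none is given. Lists are described by counts and medians, without a set test; 148 of 150 listed genes were found and 138 tested, and some genes are in more than 1 list. The members and lists were chosen with earlier results of these data known. Named were HNRNPF, the 10 genes, up to 4 tested members per list with the smallest p, the 3 protein-coding genes nearest in pattern to ATF4, TRIB3 and DDIT3, and those marked as chosen after their values were seen; 1 listed gene that the rule names is not reported here. Coordinates are from the deposited table; gene types are from GENCODE 29. Figures used Python 3.11.15 with matplotlib 3.10.9. The alternatives are given in the closing section.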

Additional observations from a re-analysis of the deposited data

How the results depend on the processing

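None of the 10 genes passed in limma under any of the alternatives; their lowest adjusted p was 0.238, for TRIB3 with median-ratio scaling. The alternatives were pseudocounts of 0.1 and 0.5, no filter or a mean of at least 5 FPKM (which removes CHAC1 and DDIT3), quantile normalization, median-ratio scaling, no trend, robust estimation, a replicate block, leaving out each sample, and adding the same-strand overlap of DDIT3. ATF4, TRIB3, CHAC1, SHMT2, SESN2 and DDIT4 kept a log2 fold change below 0 in all that could be run. Without 1 sample at a time, that of TRIB3 lay between -1.09 and -0.89, DDIT4 between -0.87 and -0.56, ASNS between -0.57 and 0.12, PSAT1 between -0.38 and 0.022, PHGDH between -0.41 and 0.21, ATF4 between -0.17 and -0.013, CHAC1 between -0.91 and -0.15, SHMT2 between -0.69 and -0.28, SESN2 between -0.14 and -0.10 and DDIT3 between -0.23 and 0.25. DDIT3 was also at -0.039 with quantile normalization. Of the 10 genes, 6 to 10 were below 0 without 1 sample. The median of all genes tested lay between -0.063 and 0.062 in these fits. Leaving out a sample turned the sign or moved the value by over 1.5 times for 7 (without control 1), 6 (without control 2), 5 (without knockdown 1) and 5 (without knockdown 2) of the 10 genes, and for 8, 8, 5 and 7 of the 9 list medians in the same order.

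The number of genes called, 1 (HNRNPF), was 0 with no filter, 0 with no trend and 0 with the replicate block. At an unadjusted p under 0.05 there were 1703 of 30943 genes tested (5.50%) with no filter. There were 789 of 13110 (6.02%) with no trend and 1790 of 13110 (13.7%) with the replicate block. Without 1 sample at a time, the log2 fold change of HNRNPF lay between -3.13 and -2.98. Gaps between replicates 1 and 2 correlated between the groups across 13110 genes (r = 0.39), but the labels say nothing of pairing. With the replicate block the adjusted p in limma was 0.271 for DDIT4 and TRIB3 and 0.164 for HNRNPF, and 3 of the 10 genes (TRIB3, SHMT2 and DDIT4) had an unadjusted p under 0.05, where 13.7% of all genes tested did. With the stricter core TGATGCAA, 0.866% of promoter windows held it against 3.62% for TGATGNAA, and 1 of the genes (CHAC1) against 2. With 2 samples per group, the 95% interval of ASNS spans ratios of 0.491 to 1.49.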
